A study of Mus musculus with 4 samples.

Results

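CD8 T cells of the YUMMER1.7 tumor, a mutation-rich mouse melanoma line, were taken from 2 pooled scRNA-Seq libraries in which each treatment arm carries its own hashtag antibody. A barcode was kept with 200 to 5000 genes, at most 5% mitochondrial UMIs and a leading hashtag at least 3 times the next, and was counted as a CD8 T cell, selected on its own UMIs, with at least 2 over Cd3d, Cd3e and Cd3g, at least 1 over Cd8a and Cd8b1, none of Cd4 and at most 5 of Lyz2. The rule found 503 CD8 T cells among 6625 kept barcodes (7.59%) of 7503 deposited ones. Because RNA of these cells chose them, levels against other cells are described and not tested.

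The tumors grew under the skin of WT male C57BL/6J mice aged 7 to 8 weeks. Treatment began at day 7 with an isotype control, anti–PD-1 (RMP1-14 at 10 mg/kg), anti-MIF (IIID.9 at 20 mg/kg) or both antibodies combined (anti–PD-1/anti-MIF). The long treatment cohort received 4 doses over 2 weeks and was harvested at day 21, and the short treatment cohort received 2 doses over 1 week and was harvested at day 14. Sorted CD45+ and CD45- cells were recombined at 80% and 20%, so the share of a cell type is a share of that mixture. Hashtag anti-PD1-MIF-DDT, the fifth, occurs in both libraries without a description in the labels, and its cells enter no main comparison and only 1 alternative fit. Each arm is 1 hashtagged sample without a replicate, the hashtags do not tell the mice of an arm apart, and each cohort is 1 library, so cohort and library cannot be told apart.

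CD8 T cells read peptides on MHC class I through a receptor made of an alpha and a beta chain, each built around a V segment that is fixed when the gene rearranges and that all descendants of the cell inherit. They kill with perforin and granzymes, release IFN-γ and chemokines, and under lasting antigen take up the inhibitory receptors PD-1, LAG-3, TIM-3 and TIGIT together with the transcription factor TOX. A smaller pool that keeps TCF-1, encoded by Tcf7, is known for renewing the others.

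The arm of a cell rests on 15-base hashtag oligos, shown here, 5′ to 3′ and without capitals, because every comparison between arms depends on them.
isotype: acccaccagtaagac
anti–PD-1: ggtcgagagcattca
anti-MIF: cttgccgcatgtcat
anti–PD-1/anti-MIF: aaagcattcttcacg
the fifth hashtag: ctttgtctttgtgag

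The long library gave 241 CD8 T cells of 2053 kept barcodes (11.7%, exact 95% interval 10.4% to 13.2%) with a median of 5767 UMIs and 2135 genes per cell. In the short library 262 of 4572 barcodes (5.73%, 5.07% to 6.44%) met the rule, with a median of 4101 UMIs and 1617.5 genes. All intervals are exact (Clopper-Pearson for shares, Poisson for levels) and cover counting error only. The hashtag separation differed between arms. In the CD8 T cells of the long library the median ratio of leading to next hashtag was 4.80 for isotype, 44.6 for anti–PD-1, 6.63 for anti-MIF, 6.82 for both antibodies and 8.98 for the fifth hashtag. The corresponding short library medians were 10.4, 48.4, 18.4, 20.0 and 21.8. The long isotype arm thus lay closest to the limit of 3. The libraries shared 20 barcodes, of which 15 were kept in both, and 6 CD8 T cells carried such a barcode.

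Markers of the rule were broadly detected. Cd3e, a signaling chain of the receptor complex, had a UMI in 96.3% of CD8 T cells of the long library and 90.8% of the short, and Cd8b1, a coreceptor chain, in 93.4% and 93.5%. Trac, the alpha chain constant gene that the rule did not use, had a UMI in 75.5% and 74.8%, against 5.13% and 3.06% of all other kept barcodes. Nkg7, a granule protein of killer cells, had a UMI in 96.7% and 95.4%. The label of the cells was also set against other cell types. Ncr1, Klra4 and Klra8, which define NK cells, were at 0 in all 503 cells, although the 7 NK markers summed to 981 CPM (UMIs of a gene scaled to the summed UMIs of the cells) against 170 in all other barcodes, with Klrd1 (770 CPM), a receptor chain that activated CD8 T cells also carry, as the most abundant. Klre1, another receptor of the list, had 98.9 to 231 CPM in the labelled arms. In the same pool of 503 cells, 11 monocyte and macrophage markers, of which the rule limits Lyz2, summed to 102 CPM against 9720 in other barcodes. There 8 dendritic markers summed to 180 against 9148, 4 neutrophil markers to 25.5 against 810 and 6 B cell markers to 26.5 against 94.4. The 4 gamma delta T markers were higher in CD8 T cells, at 43.1 against 6.71 CPM. Most of this was Tcrg-C2 (38.9 CPM), a gamma chain constant gene, and Trdv4 was at 0. The 3 markers of CD4 and regulatory T cells, of which the rule sets Cd4 to 0, summed to 9.19 CPM against 13.9. The 3 stromal markers summed to 16.3 against 47.2 and 3 red blood cell markers to 0.707 against 0.487. All 5 melanoma markers were at 0, but they summed to only 0.266 CPM in other barcodes, so this 0 says little about tumor cell RNA. The short anti–PD-1 arm stood apart in this respect, with 609 CPM of dendritic markers where the other arms had 17.7 to 103, with 226 CPM of monocyte and macrophage markers (35.4 to 83.9 in the others) and with 95.3 CPM of neutrophil markers (0 to 10.1). There, 3 of 143 cells held 679 of 729 class II UMIs.

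At the edges of the rule, 11 cells of the long and 16 of the short library had exactly 2 Cd3 UMIs, with Nkg7 at 1212 and 656 CPM and Cd74 at 233 and 156 CPM. Just outside, 14 and 16 barcodes had a single Cd3 UMI, with Nkg7 at 382 and 148 CPM and Cd74, the class II invariant chain, at 1831 and 4343 CPM. A further 28 and 83 barcodes met every condition except a Cd8 UMI, with Nkg7 at 1037 and 1201 CPM.

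The share of CD8 T cells among kept barcodes was highest in the long isotype arm. In the long cohort it was 35.2% (56 of 159, interval 27.8% to 43.2%) for isotype, 16.6% (64 of 386, 13.01% to 20.7%) for anti–PD-1, 7.82% (70 of 895, 6.15% to 9.78%) for anti-MIF, 12.5% (36 of 288, 8.91% to 16.9%) for both antibodies and 4.62% (15 of 325, 2.61% to 7.5%) under the fifth hashtag. In the short cohort isotype was lowest instead, at 2.28% (17 of 744, 1.34% to 3.63%), against 8.34% (143 of 1714, 7.08% to 9.75%) for anti–PD-1, 7.23% (41 of 567, 5.24% to 9.68%) for anti-MIF, 5.46% (26 of 476, 3.60% to 7.90%) for both antibodies and 3.27% (35 of 1071, 2.29% to 4.52%) under the fifth hashtag. The isotype arms formed both extremes, and all antibody arms lay between them.

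With anti-MIF the share was on average 7.35 percentage points lower than in the matched arm (SD 13.95 over 4 pairs, higher in 1 of 4 pairs, p = 0.5 by exact permutation of the signs of the 4 differences, two-sided, where the smallest p is 1 in 8). The difference was -27.4 against the long isotype arm and -4.08, 4.95 and -2.88 points in the other pairs, and without the long isotype arm it averaged -0.672 points. With anti–PD-1 it averaged -2.42 points (SD 11.3, higher in 2 of 4 pairs, exact permutation p = 0.875), and 2.99 points without the long isotype or the long anti–PD-1 arm. At a hashtag ratio of at least 2 it was -0.59 points and at least 5 -3.73 points. The difference of the long anti-MIF from the long isotype arm moved with this limit, from -20.2 points at a ratio of at least 2 to -33.6 at least 5. That of the long anti–PD-1 from the long isotype arm moved from -11.6 to -25.6 points. The high share of the long isotype arm thus depends on the hashtag limit. Neither mean difference exceeded the spread between pairs. Other cells of the mixture set this denominator. Among barcodes with at least 2 Cd3 UMIs the anti-MIF difference was -1.35 points, and the anti–PD-1 difference 3.75. Among barcodes with at least 2 Cd3 UMIs, CD8 T cells were 93.3%, 82.1%, 64.2% and 81.8% of the long isotype, anti–PD-1, anti-MIF and combined arms and 41.5%, 65.6%, 73.2% and 57.8% of the short ones. CD4 T cells were 19 of 895 kept barcodes in the long anti-MIF arm and 2 of 159 with isotype, and myeloid cells were 52.2% and 28.9% of those arms.

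**Figure D1:**
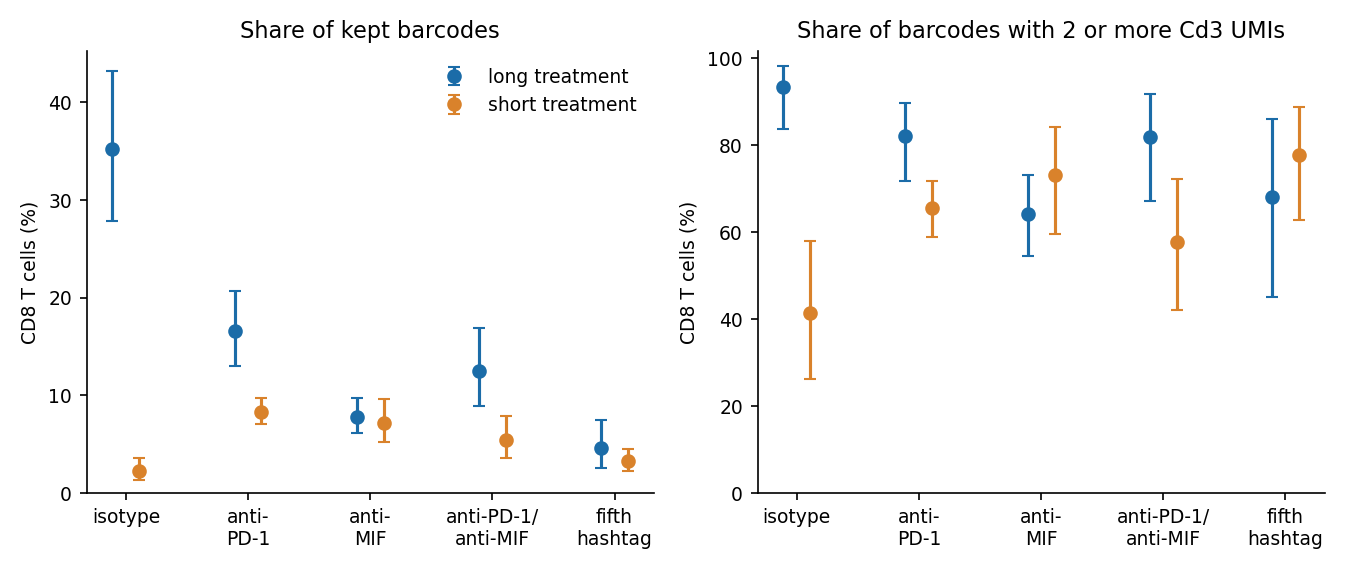
CD8 T cells as a percentage of kept barcodes (left) and of barcodes with 2 or more Cd3 UMIs (right) in each arm, with long treatment in blue and short treatment in orange. Points are arms and bars are exact 95% intervals. The long isotype arm is the highest point at 35.2% and the short isotype arm the lowest at 2.28%.

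Among 1640 genes with at least 50 CPM in the CD8 T cells of all 8 labelled arms, 322 (19.6%) were at least 2-fold higher than in all other kept barcodes, and 66 were so against CD4 T cells. The largest ratio belonged to Gzmf, a granzyme of long-stimulated killer cells, with a mean over the 8 arms of 529 CPM in CD8 T cells, 0.798 in other barcodes and 0 in CD4 T cells. In NK cells Gzmf had 0 CPM in the long and 3.27 in the short library, while the neighboring Gzmc, which lies in the same gene cluster on chromosome 14, had 1449 and 2589 CPM there and 58.2 and 26.0 in CD8 T cells. These granzymes are close copies, and reads may be shared among them. Cd8a, Cd8b1, Cd3e, Cd3g and Cd3d followed, which the rule used. Cxcr6, a chemokine receptor of tissue T cells, had 447 CPM against 7.07, Rgs16, a regulator of G protein signals, 532 against 10.5, and Themis, a receptor signaling adaptor, 394 against 8.77. Gm44174, an unnamed gene model, had 137 against 2.02. Set against CD4 T cells, Cxcr6 was nearly level (log2 ratio 0.11), whereas Klrc1, which encodes the inhibitory receptor NKG2A, had a log2 ratio of 2.31, Ifng 1.75 and Rgs16 1.40.

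**Figure D2:**
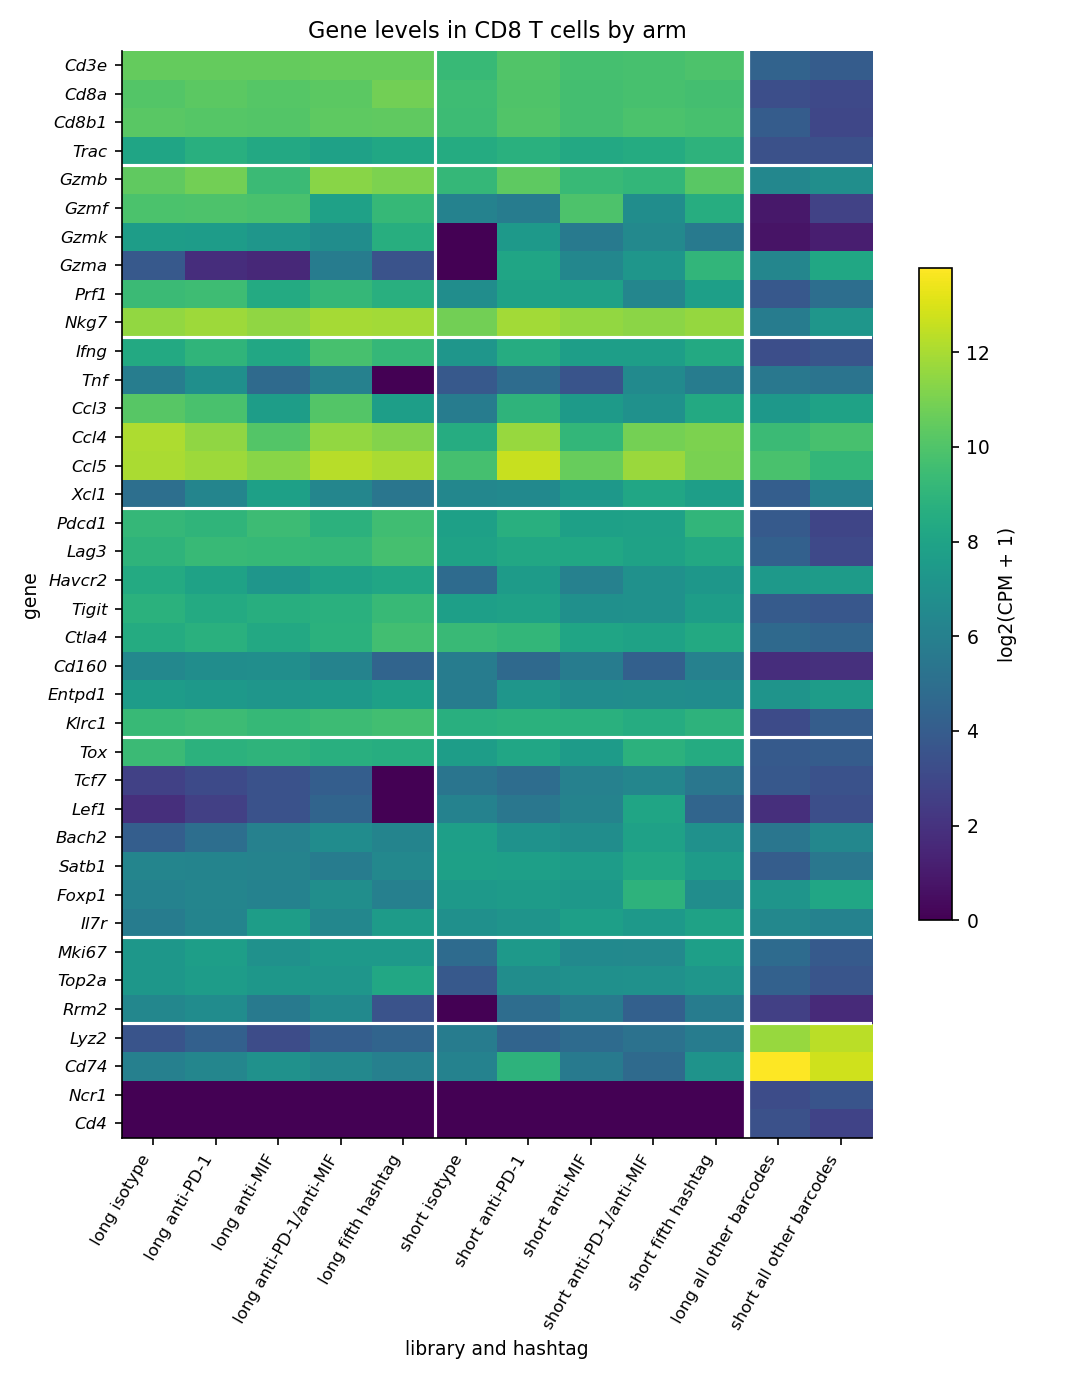
Level of 38 genes, as log2(CPM + 1), in the CD8 T cells of 5 hashtags in each library and, in the last pair of columns, in all other kept barcodes. White lines separate gene groups and libraries. Nkg7 is high in every arm, Lyz2 and Cd74 are high in the other barcodes, and Ncr1 is at 0 in CD8 T cells, as is Cd4 by the rule.

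Killing genes were widely detected. After thinning each cell to 2000 UMIs, which left 223 long and 233 short cells, Gzmb, the main granzyme of effector cells, had a UMI in 55.2% and 54.9% (66.8% and 64.1% before thinning), and Prf1, the pore protein perforin, in 53.8% and 26.6%. Ifng had a UMI in 44.8% and 25.3%. In myeloid cells, which should lack these genes, the thinned shares were 0.208% and 0.228% for Gzmb and at most 0.266% for the other 2, at median depths of 11248 and 6935 UMIs against 6154 and 4373 in the thinned CD8 T cells. Gzma had a UMI in only 3.59% and 8.15% of CD8 T cells, although NK cells of the same libraries held it at 5440 and 6683 CPM.

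The levels of these genes varied more than counting error between arms. Gzmb had 1388 CPM for isotype, 1809 for anti–PD-1, 662 for anti-MIF and 2608 for both antibodies in long treatment, and in short treatment the same arms had 582, 1329, 614 and 548. Values of 4 arms are given in this order throughout. The anti-MIF arm was thus the lowest of the long cohort, while the short cohort had a single high arm, anti–PD-1. Gzmf had 933, 961, 904 and 239 CPM in the long arms and 67.7, 53.6, 969 and 106 in the short, so that only the anti-MIF arm of the short cohort reached the level of the long isotype, anti–PD-1 and anti-MIF arms. Prf1 had 672, 712, 342 and 585 CPM in the long arms and 108, 249, 231 and 79.6 in the short ones. For Prf1 every long arm lay above every short arm. Nkg7 stayed between 1841 and 3898 CPM in all of them.

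Ifng had 328, 518, 312 and 874 CPM in the long arms (isotype, anti–PD-1, anti-MIF, anti–PD-1/anti-MIF) and 149, 366, 210 and 212 in the short. Ccl4, an inflammatory chemokine, had 4349, 2913, 1091 and 2963 CPM in the long arms against 365, 3192, 565 and 1919 in the short arms. The isotype arms again were its highest long value and its lowest short value, and 16 cells of a single receptor pair, described further on, held 1037 Ccl4 UMIs of the long isotype arm, whose other 40 cells stood at 2457 CPM. Ccl3 and Ccl4 occurred in the same cells, with a Ccl4 UMI in 96.8% of thinned Ccl3-positive cells of the long library (44.4% of the rest) and in 87.2% (40.9%) of the short. Macrophages make these chemokines too, and 32.0% and 27.2% of thinned myeloid cells had a Ccl4 UMI.

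Inhibitory receptors were common, and TCF-1 was rare. Pdcd1, which encodes PD-1, had a UMI in 67.7% of thinned long and 44.2% of thinned short CD8 T cells, Lag3 in 64.1% and 35.2%, Tigit in 49.8% and 31.3% and Tox in 52.0% and 33.0%. Havcr2, which encodes TIM-3, had a UMI in 32.7% and 25.8%, beside 28.6% and 29.1% of myeloid cells, which carry the gene themselves. Tcf7 had a UMI in 4 of 223 long cells (1.79%, interval 0.491% to 4.53%) and 17 of 233 short cells (7.30%, 4.31% to 11.4%), against 0 of 962 and 2 of 2629 myeloid cells. None of these 21 cells had a Havcr2 UMI. Of the remaining cells 33.3% and 27.8% had one, and 4 and 17 cells give little precision. Il7r, the receptor of a survival cytokine, had a UMI in 21.5% and 22.7%, and Itgae, an integrin of tissue-resident cells, in 1.35% and 3.43%. In thinned myeloid cells, at the depths given above, the long and short shares were 4.26% and 4.53% for Il7r, 0.312% and 0.152% for Itgae and Pdcd1, and at most 0.152% for Lag3, Tigit and Tox.

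Cells in cycle, counted by a UMI of Mki67 or Top2a after thinning, were 15.2% of long and 12.9% of short CD8 T cells (32.8% and 21.8% before thinning). Mature dendritic cells, which do not divide, had 0 of 116 and 2 of 52 such cells (3.85%) at median depths of 9276 and 7639 UMIs. By arm, the share was 21.2%, 15.5%, 12.3% and 13.9% in the long cohort, and 0 of 12 cells with such a UMI (which allows up to 25%, with 17.6% before thinning), 10.9%, 18.9% and 9.09% in the short. The mean difference with anti-MIF was 1.67 points (higher in 1 of 4 pairs, exact permutation p = 1) and with anti–PD-1 -0.758 points (higher in 2 of 4 pairs, exact permutation p = 1), both within the spread between pairs. Before thinning they were 3.59 points (higher in 2 of 4 pairs, exact permutation p = 0.5) and -4.88 points (higher in 1 of 4 pairs, exact permutation p = 0.25). Leaving out the short isotype or the short anti-MIF arm turned the thinned anti-MIF difference to -4.08 points. That of anti–PD-1 became 0.869 points without the long isotype or the long anti–PD-1 arm and 2.27 without the short anti-MIF or the short anti–PD-1/anti-MIF arm. Of the thinned cycling cells 47.1% in the long and 56.7% in the short library had a Gzmb UMI, against 56.6% and 54.7% of the rest.

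Long and short treatment were compared by listing genes whose 4 long and 4 short arms did not overlap, with no test, since each cohort is a single library. Of 2899 genes with at least 50 CPM on average, 532 did so (18.4%), with 321 higher in the long arms (11.1%) and 211 in the short (7.28%). With TMM scaling the split was 260 to 258, and it moved the median log2 difference of all genes from 0.07 to 0.01. Without the barcodes that both libraries shared, 530 genes did so. SDs below are over the 4 arms of a cohort and hold the treatments as well.

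Of 11 inhibitory receptors measured at this level, 7 lay higher in all long arms (11.1% of all genes did) and none in all short arms, under TMM scaling too, with a median log2 difference of 1.03 over the 11. Pdcd1 had 567, 508, 700.4 and 461 CPM in the long isotype, anti–PD-1, anti-MIF and combined arms and 230.1, 411, 226 and 239 in the short (559 ± 104 against 276 ± 89.8, SD, n = 4 arms). Lag3 had 500.2, 631, 605 and 577 CPM against 244, 304, 291 and 248, and the groups were farther apart than for Pdcd1. Tigit had 403 ± 43.3 CPM in the long and 173 ± 60 in the short arms. Cd160 (log2 difference 1.41), Cd244a (1.03), Entpd1 (0.80) and Klrc1 (0.65) completed the set. Among the other 4, Cd96 (0.20) and Vsir (0.21) overlapped. Havcr2 overlapped too, with 347, 247, 151 and 239 CPM in the long arms against 27.1, 191, 64.6 and 124 in the short arms, as did Ctla4, another receptor that restrains T cells (387 ± 58.3 and 430.3 ± 199.9 CPM).

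Of 8 naive and memory genes measured, 4 were higher in all short arms (7.28% of all genes were) and none in all long arms, with a median log2 difference of -1.63. They were Lef1, the partner of TCF-1 (log2 difference -3.36), Bach2 (-1.91) and Foxp1 (-1.49), which hold T cells in a resting or memory state, and the chromatin organizer Satb1 (-1.78). With at most 1 Lyz2 UMI allowed per cell, the arms of Lef1 and Bach2 overlapped. Il7r (-0.82), Ccr7 (-0.22), Klf2 (-1.82) and Bcl2 (0.21) did not separate. Tcf7 was not part of this count because its average was under 50 CPM. Its long values of 5.38, 7.55, 10.2 and 16.5 CPM lay below the short ones of 40.6, 29.8, 64.6 and 79.6, but they rest on few UMIs (58 in all 8 arms).

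The counts that follow stand beside 11.1% of all genes higher in the long and 7.28% in the short arms, and a count of 1 or 2 in a list of this size is near that share. Among 14 killing genes, Prf1 (log2 difference 1.89), Cst7, a granule cystatin that controls proteases (0.82), and Klrk1, which encodes the activating receptor NKG2D (0.46), were higher in all long arms. Gzmb overlapped (1617 ± 813 and 768 ± 375 CPM). None of 8 cytokine and chemokine genes and none of 3 genes of the MIF pathway (Mif, Ddt, Cd74) separated the cohorts. Of 17 receptor signaling genes 6 were higher in all long arms, and Trbc2, a beta chain constant gene, was higher in all short arms. The 6 were Cd3e, Cd3g, Cd8a and Cd8b1, which the rule used, and the kinases Lck and Zap70, the last of which overlapped under TMM scaling. Of 13 MHC class I genes 5 were higher in all long arms and none in the short, 2 of which (H2-T22, H2-T23) overlapped under TMM scaling, and of 14 interferon response genes 2 were (Gbp6, Ifi47). In the cell cycle list 2 of 14 were higher in all long arms, Top2a and Rrm2, and Rrm2 (log2 difference 2.62) overlapped under TMM scaling. Of 10 homing genes 7 overlapped, while Cxcr6 (0.70) and the signal regulator Rgs1 (0.63) were higher in all long arms, and the integrin Itgb1 (-0.98) in all short arms. Id2, a factor of effector cells, was the only 1 of 14 state transcription factors to separate (0.37). Il2rg, the common chain of several interleukin receptors, was the only 1 of 8 cytokine receptors (0.49). None of 8 costimulatory receptors and none of 11 immediate early and heat shock genes did.

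The largest separated difference by observed values was Trav3-1, a receptor alpha V segment, at 406, 22.6, 4.07 and 264 CPM in the long arms and 0 UMIs in every short arm. In the short isotype arm 0 UMIs allow up to 40.6 CPM, above the long anti–PD-1 and anti-MIF arms. Separation of Trav3-1 in these arms is therefore not established. Trgv2, a gamma chain V segment that alpha beta T cells can transcribe, had 74.2 to 269 CPM in the long and 0 to 55.1 in the short arms, and Trbv19, a beta V segment, 145 to 483 against 0 to 75.4. Spp1, a secreted matrix protein, had 98.9 to 201 CPM against 0 to 93.8, a narrow gap, while in the same libraries the other kept barcodes held 274 and 324 CPM. Eno1b (2.64), a copy of a glycolysis gene, and the gene models Gm7030 (2.64) and Gm43305 (2.55) were higher in the long arms, and Gm26740 (-2.62) in the short. Values at 0 make the log2 difference depend on the pseudocount of 1 CPM.

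For the antibodies, the CD8 T cells of the 8 labelled arms were summed per arm and fitted with edgeR on cohort, anti–PD-1 and anti-MIF, so that arms that share a term stand in for its replicates. The p-values measure the spread between these arms. Both contrasts use the same 8 arms. Of 5383 genes, none passed an adjusted p of 0.05 for anti-MIF (0%) and none for anti–PD-1 (0%). By unadjusted p under 0.05 edgeR found 255 genes for anti-MIF (4.74%, with 110 higher, 2.04%, and 145 lower, 2.69%) and 283 for anti–PD-1 (5.26%, with 153 higher, 2.84%, and 130 lower, 2.42%). DESeq2 called 0 for either antibody, with 99 and 107 at an unadjusted p under 0.05.

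The genes nearest to the threshold with anti-MIF were Tnfsf11 and Ifitm1. Tnfsf11, which encodes RANKL, had 1, 6, 27 and 22 UMIs in the long arms (2.69, 15.1, 55.0 and 90.6 CPM) and 0, 10, 4 and 7 in the short (0, 14.9, 21.5 and 61.9 CPM). The anti-MIF arm lay above its match in the other 3 pairs, but 0 UMIs in the short isotype arm allow up to 40.6 CPM, above the short anti-MIF arm at 21.5. The fitted log2 difference of 2.60 (SE 0.442, edgeR adjusted p = 0.0672) rests on a short isotype arm at 0 and is no bound. Ifitm1, an interferon-induced membrane protein, had 78.0, 229, 847 and 1080 CPM in the long isotype, anti–PD-1, anti-MIF and combined arms and 568, 368, 1566 and 548 in the short (log2 difference 1.96, SE 0.346, edgeR adjusted p = 0.0672, higher in 4 of 4 pairs). The separation was wide in the long cohort and narrow between the short anti–PD-1 and anti–PD-1/anti-MIF arms. In other kept barcodes, Ifitm1 stood at 843 and 656 CPM. Without the barcodes shared by the libraries, edgeR called both genes (adjusted p = 0.0468 for Tnfsf11 and 0.0432 for Ifitm1), and without the cells rich in class II UMIs it called both (0.0145 and 0.0207) and the V segment Trav8d-2. Without V segment genes both had an adjusted p of 0.0278. With 1 arm left out, edgeR called Ifitm1 without the long anti-MIF or the short combined arm, and Tnfsf11 without the short anti-MIF arm.

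Lef1 had an edgeR log2 difference of 2.04 with anti-MIF (SE 0.428, adjusted p = 0.140, higher in 4 of 4 pairs), from 2.69, 5.03, 10.2 and 20.6 CPM in the long arms and 67.7, 43.2, 70.0 and 274 in the short. The long values of Lef1 rest on 1, 2, 5 and 5 UMIs, whose intervals overlap within pairs. Its short isotype and short anti-MIF arms were nearly level. In the naive and memory list, 5 of 9 genes tested had an unadjusted p under 0.05 and a higher value with anti-MIF (2.04% of all genes did), none a lower, and the median of the 9 was 0.59 against 0.01 over all genes. Besides Lef1 these were Bach2 (0.89), Il7r (0.81), Foxp1 (0.59) and Tcf7 (1.15), each with an edgeR adjusted p of 0.940 or more. Il7r had 53.8, 73.0, 204 and 82.4 CPM in the long arms against 122, 141, 215 and 177 in the short arms. The share of thinned cells with an Il7r UMI was 33.8% in the long and 32.4% in the short anti-MIF arm, against 13.5% and 25% with isotype. Beside anti–PD-1 it was 16.7% with and 17.2% without anti-MIF after long treatment, and 36.4% and 14.7% after short treatment. Without the long isotype or the long anti-MIF arm the log2 difference of Il7r was 0.47, and that of Lef1 was 1.05 without the short anti–PD-1 arm and 1.12 without the short combined arm. Xcl1, a chemokine for cross-presenting dendritic cells, had 32.3, 75.5, 226 and 78.3 CPM in the long arms and 81.2, 90.8, 161 and 283 in the short (log2 difference 1.43, SE 0.338, edgeR adjusted p = 0.263, higher in 4 of 4 pairs). Without the long combined arm edgeR called it (1.97, adjusted p = 0.00913).

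On the lower side with anti-MIF, Lars2, a mitochondrial tRNA synthetase (log2 difference -0.71, SE 0.142, edgeR adjusted p = 0.116), and Gm42418, a gene model that overlaps ribosomal RNA repeats (-0.41, SE 0.0904, adjusted p = 0.203), were lower in 4 of 4 pairs. Lars2 was called without the short combined arm (adjusted p = 0.00392) and Gm42418 without the short anti–PD-1 arm (adjusted p = 0.0221). Gm42418 took 34447, 34273, 28887 and 22382 CPM in the long arms and 100677, 59900, 66374 and 55948 in the short, so that it lay lower in every long arm and stood out with isotype in the short cohort. Its part in the other differences was not tested. Of 12 inhibitory receptors tested 2 had an unadjusted p under 0.05, both lower (2.69% of all genes were), Ctla4 (-0.55) and Havcr2 (-0.66), with a list median of -0.19. Of 15 state transcription factors 3 were lower at that level, Irf4 (-0.76), Nr4a2 (-0.59) and Prdm1 (-0.65), of 17 killing genes 1 was, Serpinb9 (-0.66), the inhibitor of granzyme B, and of 13 immediate early and heat shock genes 2 were. Of 19 cell cycle genes 1 was lower, of 8 costimulatory receptors 1, of 10 cytokine receptors 2, and of 13 homing genes 1 was lower and 2 were higher. Of 9 cytokine and chemokine genes 1 was higher and 2 were lower (2.04% and 2.69% of all genes were). None of 17 interferon response, 13 MHC class I, 17 receptor signaling or 3 MIF pathway genes reached that level. Mif itself had a log2 difference of 0.05 (SE 0.198).

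With anti–PD-1, of 9 cytokine and chemokine genes tested 5 had an unadjusted p under 0.05 and a higher value (2.84% of all genes did), none a lower and none an adjusted p under 0.05, with a median of 0.89 against 0.01 over all genes. Ifng had a log2 difference of 0.93 (SE 0.215, edgeR adjusted p = 0.282, higher in 3 of 4 pairs), Ccl5 1.08 (SE 0.276, adjusted p = 0.390), Ccl4 1.15 (SE 0.345, adjusted p = 0.721), Ccl3 0.89 and Tnf 1.23. Only Tnf was higher in 4 of 4 pairs, but its short isotype and short anti-MIF arms held 1 and 2 UMIs. In the short isotype arm it stood at 13.5 CPM (0.343 to 75.4) against 28.3 (17.0 to 44.2) with anti–PD-1, within counting error. Ccl3, Ccl4 and Ccl5 were lower with anti–PD-1 than with isotype after long treatment (903 against 1167, 2913 against 4349 and 3514 against 4139 CPM). The short anti–PD-1 arm, which was highest of the short arms for all 3, is also the arm richest in myeloid markers, whose part in the result was not tested. In the pair that did not share this direction for Ifng, the short anti–PD-1/anti-MIF and anti-MIF arms were nearly level, at 212 and 210 CPM before scaling. Without the long combined arm the log2 difference of Ifng was 0.61. Without the long isotype arm that of Ccl4 was 1.89, and edgeR called 5 genes, Ccl4 (adjusted p = 0.00107), Ccl5 (adjusted p = 0.0428), Trbv3, Cited2 and Phlda1, the last 2 named after their values were seen. Of 13 immediate early and heat shock genes 7 were higher at an unadjusted p under 0.05 and none lower, with a median of 0.66. Hspa1a, an inducible heat shock protein, had 417, 780, 10.2 and 845 CPM in the long arms against 190, 252, 140 and 389 in the short arms (log2 difference 1.67, SE 0.538, edgeR adjusted p = 0.807, higher in 4 of 4 pairs), and the long anti-MIF arm was far below the other arms. Without that arm the log2 difference was 0.87, and without the long isotype arm 2.67.

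The genes closest to the threshold with anti–PD-1 and in the same direction in all pairs by observed values were Dnaja1, a cochaperone (log2 difference 0.83, SE 0.177), the beta V segment Trbv3 (2.78, SE 0.608), Camk1d, a calcium-dependent kinase (-0.66, SE 0.146), Lars2 (-0.64, SE 0.143) and the immediate early gene Ier5 (1.22, SE 0.278). Their edgeR adjusted p was 0.278, or 0.282 for Ier5. Trbv3 had no UMI in the long anti-MIF and short isotype arms, so its size rests on arms at 0 and is no bound. In the short isotype arm 0 UMIs allow up to 40.6 CPM, above the short anti–PD-1 arm with 22 UMIs of 671768. The direction of Trbv3 in that pair is therefore not established. Without the short combined arm Lars2 was called (adjusted p = 0.0344). The log2 difference of Trbv3 was 5.52 without the long isotype arm (adjusted p = 0.0026) and 1.52 without the long anti-MIF arm. Gzmb had a log2 difference of 0.89 (SE 0.232, edgeR adjusted p = 0.411, higher in 3 of 4 pairs), and 0.47 without the long combined arm. Of 17 killing genes 3 were higher and 1 lower at an unadjusted p under 0.05 (2.84% and 2.42% of all genes were, and a count of 1 in the lists here is near that share), with a median of 0.14, of 19 cell cycle genes 5 were higher (among them Ube2c, 1.30, and Cenpf, 1.16) and 1 lower, and of 12 inhibitory receptors none reached it, with a median of 0.04. The naive and memory list had 2 higher and 1 lower of 9, the transcription factors 1 higher and 2 lower of 15, the cytokine receptors 1 in each direction of 10, and the costimulatory receptors 1 lower of 8. Of 13 MHC class I, 17 receptor signaling and 13 homing genes 1 each was higher, and of 17 interferon response and 3 MIF pathway genes none reached that level. Pdcd1 itself had a log2 difference of -0.06 (SE 0.214).

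**Figure D3:**
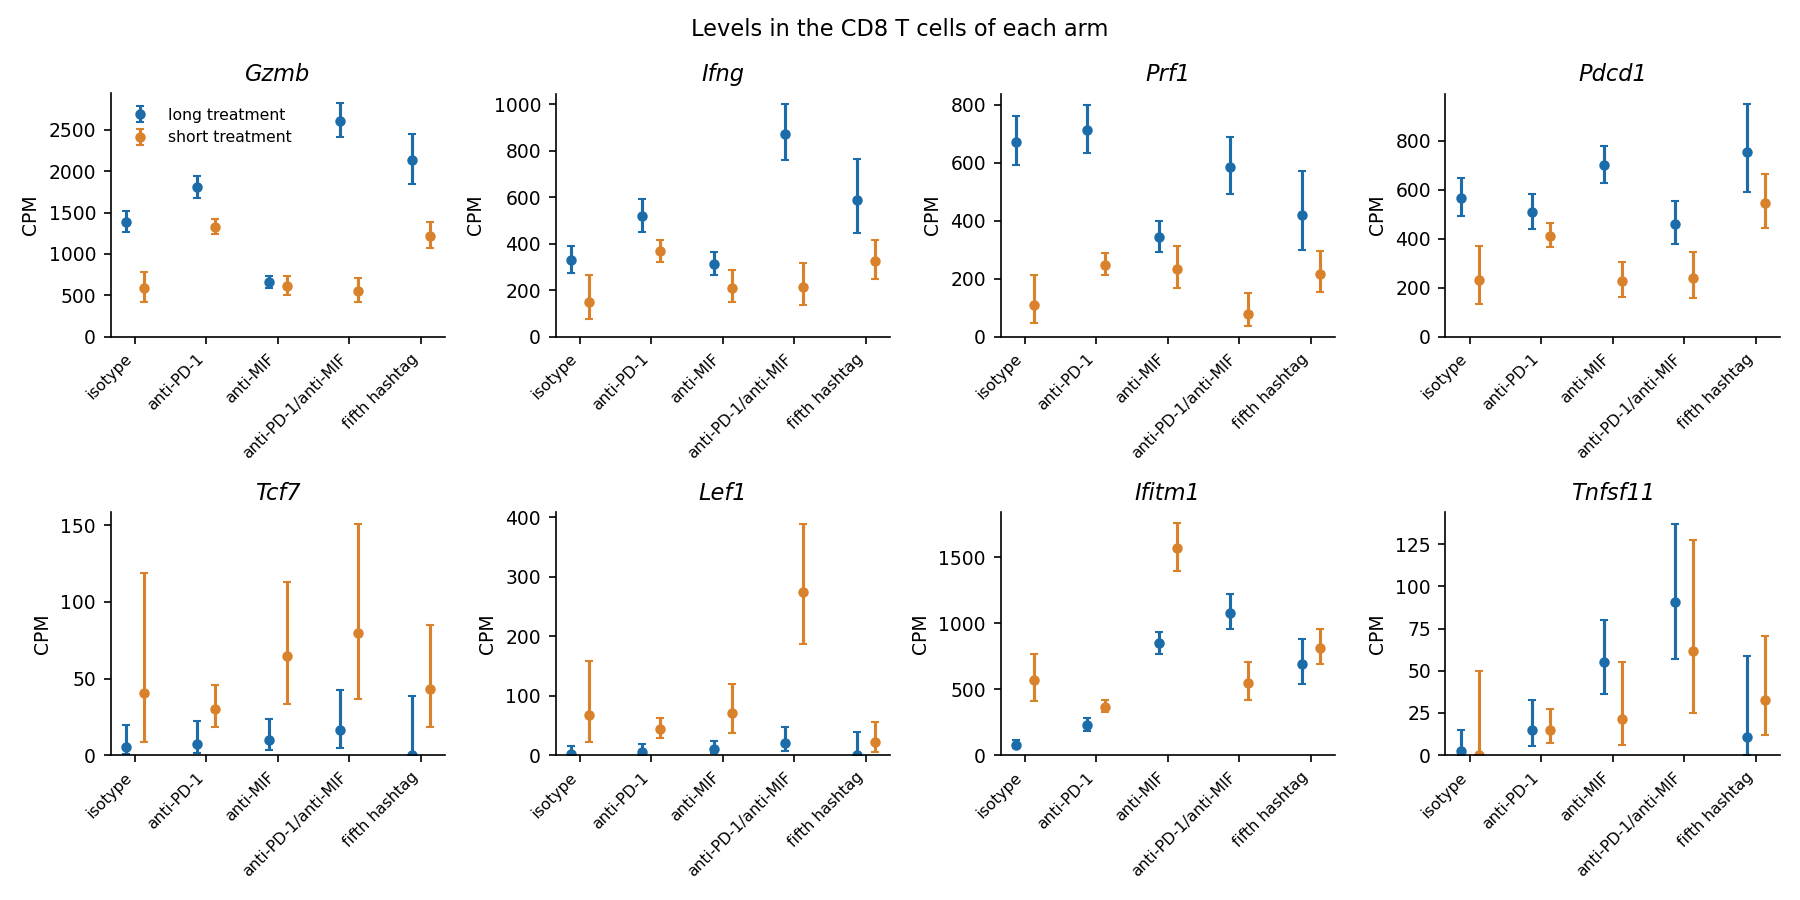
Level in CPM of 8 genes in the CD8 T cells of each hashtag, long treatment in blue and short treatment in orange, with exact 95% Poisson intervals. Among the labelled arms Prf1 and Pdcd1 are higher in all long arms, Tcf7 and Lef1 in the short, and Ifitm1 lies higher in each anti-MIF arm than in its match.

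Whether the effect of anti-MIF differed with anti–PD-1 was tested as an interaction in edgeR. It called 3 of 5383 genes (0.0557%, 191 or 3.55% at an unadjusted p under 0.05, 1.58% higher and 1.97% lower), and all were receptor V segments. Trav3-1 had 151, 9, 2 and 64 UMIs in the long arms and none in the short (fitted log2 difference 9.95, SE 0.82, adjusted p = 2.61e-05). Trav13-1 had 0, 130, 53 and 3 UMIs in the long arms against 0, 12, 1 and 2 in the short arms (-11.69, SE 1.43, adjusted p = 0.000839). Trbv31 had 107, 1, 204 and 129 UMIs in the long arms against 2, 4, 10 and 6 in the short arms (4.91, SE 0.732, adjusted p = 0.00541). These sizes depend on the arms near 0 and are no bound. For Trav3-1, with every short arm at 0, only the 4 long arms inform the interaction, with 1 arm per combination of antibodies. Its SE and p therefore rest on the spread of other genes and not on replicates of its own. Each of the 3 calls was lost without any 1 of the 4 long arms (no call without the long anti–PD-1/anti-MIF arm, and 11 calls without the short anti-MIF arm) and with no cohort term, Trbv31 was lost at a hashtag ratio of at least 5, DESeq2 called Trbv31 alone (adjusted p = 0.00838), and without V segment genes edgeR called none.

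V segments were therefore described cell by cell. The libraries read transcripts from the 5′ end, where the V segment lies, and the files count 35 beta and 128 alpha V segments. A beta V UMI was found in 84.6% of long and 70.6% of short CD8 T cells, against 0.828% and 0.336% of myeloid cells. The leading beta segment of a cell is the one with the most UMIs, without a tie, even from a single UMI. Among CD8 T cells with at least 2 beta V UMIs, 133 of 182 long (73.1%) and 97 of 144 short cells (67.4%) held a single segment. The others also held UMIs of another beta segment, so a leading segment is not a full receptor identity. The last 60 coding bases of the 8 beta segments in the pairs with at least 5 cells, described further on, are shown, 5′ to 3′ on the coding strand. They are reference sequence, and cells were told apart by UMIs counted per segment gene, not by these bases. Capitals mark the codon of the conserved cysteine at which the variable joint begins. Sequences and positions are from GRCm38 with the GENCODE vM21 annotation and end at the last coding base of the segment.
Trbv31 (chr6:41557693-41557752, minus strand): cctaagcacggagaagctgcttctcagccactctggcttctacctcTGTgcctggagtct
Trbv19 (chr6:41178989-41179048, plus strand): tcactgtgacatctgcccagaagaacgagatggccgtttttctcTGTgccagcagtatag
Trbv14 (chr6:41135557-41135616, plus strand): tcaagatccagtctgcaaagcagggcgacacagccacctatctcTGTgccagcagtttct
Trbv26 (chr6:41227934-41227993, plus strand): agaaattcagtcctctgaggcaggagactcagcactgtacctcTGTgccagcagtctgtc
Trbv16 (chr6:41152171-41152230, plus strand): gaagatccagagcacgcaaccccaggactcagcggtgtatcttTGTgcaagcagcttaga
Trbv23 (chr6:41216467-41216526, plus strand): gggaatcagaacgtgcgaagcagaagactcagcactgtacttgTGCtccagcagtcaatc
Trbv12-2 (chr6:41119305-41119364, plus strand): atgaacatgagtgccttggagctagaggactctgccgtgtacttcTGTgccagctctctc
Trbv3 (chr6:41048769-41048828, plus strand): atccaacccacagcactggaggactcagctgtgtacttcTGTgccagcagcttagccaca

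Of these, Trbv31 is the segment on the opposite strand, beyond the constant gene Trbc2 (chr6:41546730-41548352), and Trbv23 is the segment whose cysteine codon is written differently. Over their coding sequence, the nearest other beta segment was 58.96% identical for Trbv31 and 73.8% for Trbv23 and Trbv26, and 88.2% (Trbv12-1) for Trbv12-2. Many alpha segments have much closer copies, 97.1% for Trav3-1 (Trav3-4) and 96.4% for Trav13-1 (Trav13d-1), so their names are uncertain.

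In each long arm 1 or 2 beta segments led most cells. The segment leading most cells was Trbv31 in the long isotype arm (19 of 45 cells, 42.2%, interval 27.7% to 57.8%), in the anti-MIF arm (35.1% of 57, 22.9% to 48.9%) and in the anti–PD-1/anti-MIF arm (17 of 34 cells, 50%, 32.4% to 67.6%). In the long anti–PD-1 arm no cell led with Trbv31, and Trbv19 (44.2% of 52) led before Trbv16. Counted by UMIs, Trbv16 led that arm with 42.5%. Among the short arms, anti–PD-1 was led by Trbv14 (36.5% of 104, 27.3% to 46.6%) before Trbv26, and anti-MIF by Trbv19 (30% of 30 cells, 14.7% to 49.4%). The short isotype arm had 6 cells with a leading segment and 6 different segments.

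**Figure D4:**
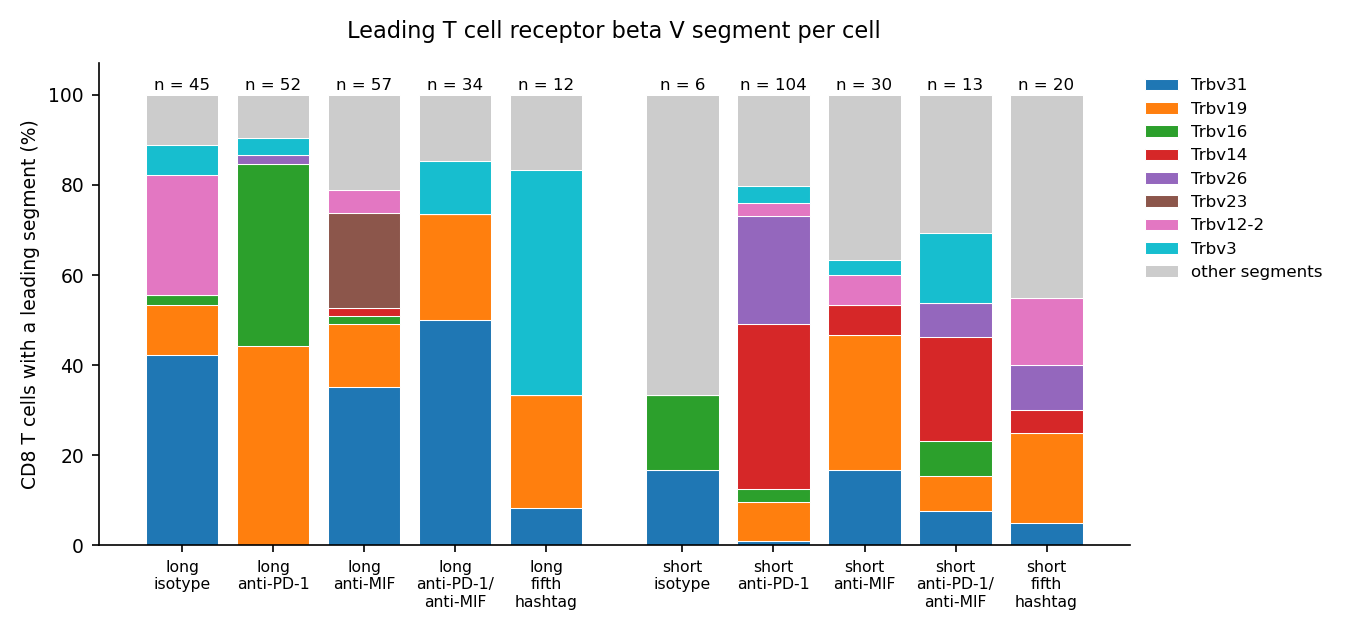
Share of CD8 T cells by leading beta V segment in each hashtag of the long (left) and short (right) library, with the number of cells that have a leading segment above each bar. Trbv31 takes 42.2%, 35.1% and 50% of the long isotype, anti-MIF and combined arms and none of the long anti–PD-1 arm.

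Alpha and beta leading segments were read together in 260 cells, which formed 87 pairs. Cells of the same pair may share an ancestor, but the joint sequence that would tell was not analysed here. A pair seen in at least 3 cells of the arm held 64.1% of such cells of the long isotype arm, 81.1% for anti–PD-1, 77.6% for anti-MIF and 68.8% for both antibodies, and 67.2% in the short anti–PD-1 arm. In the other short arms it held none of 4, 9 and 5 cells. With so few cells there, pairs in at least 3 cells were not detectable unless very frequent. Below that cut, 9 cells of the short anti-MIF arm formed 7 pairs. There Trbv19 with Trav10d and Trbv19 with Trav13-4-dv7 had 2 cells each. Of 13 pairs with at least 5 cells, 5 lay in 1 arm, 8 in several arms and 4 in both libraries.

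The largest pair, Trbv31 with Trav3-1, had 16 cells in the long isotype arm and 9 in the long anti–PD-1/anti-MIF arm. Their median hashtag ratios were 4.58 and 7.28, near those of the other CD8 T cells of these arms. Trbv19 with Trav13-1 had 16 cells with anti–PD-1 (median ratio 46.7), 6 with anti-MIF (5.41) and 1 with both antibodies in the long library, and 1 with anti–PD-1 in the short. Whether a shared pair reflects the same receptor in separate mice or cells carrying the hashtag of another arm was not tested. Trbv14 with Trav14-3 had 22 cells and Trbv26 with Trav19 had 16 cells in the short anti–PD-1 arm, and apart from 1 short anti-MIF cell of the former they occurred nowhere else. Trbv16 with Trav6-3 (11 cells, long anti–PD-1) and Trbv23 with Trav19 (10 cells, long anti-MIF) lay in a single arm.

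Several pairs differed in level from the other CD8 T cells of their own arm by more than counting error. Each comparison is within 1 arm and carries counting intervals and no test. The other cells are all remaining CD8 T cells of the arm, including those with the same beta segment but no leading alpha segment. In the long anti–PD-1 arm, for example, 21 cells led with Trbv16 and 11 of them had a leading alpha segment. Cells of a pair may thus be among the other cells. Trbv19 with Trav13-1 in the long anti–PD-1 arm had Gzmb at 3115 CPM (2842 to 3406) against 979 (859 to 1112) in the other 48 cells, and in the long anti-MIF arm at 1300 CPM (1005 to 1653) against 588 (519 to 664). The pair was thus higher in both arms in which it had at least 6 cells. Trbv23 with Trav19 was the opposite case, with Gzmb at 108 CPM (53.8 to 193) against 807 (720 to 901) in the other cells of the long anti-MIF arm. Its Mki67, a gene of dividing cells, stood at 333 CPM (231 to 466) against 69.4 (45.7 to 101). In the short anti–PD-1 arm, Trbv14 with Trav14-3 had Gzmb at 2389 CPM against 1095, Pdcd1 at 690 against 349 and Mki67 at 304 against 144, whereas Trbv26 with Trav19 had Gzmb at 1395 against 1318.

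Ccl4 stood at 7639 CPM (7181 to 8119) in the Trbv31 with Trav3-1 cells of the long isotype arm against 2457 (2261 to 2665) in the others, and at 6373 (5769 to 7022) against 1741 (1553 to 1945) in the long combined arm. Trbv26 with Trav19 had 7859 CPM (7321 to 8428) against 2371 (2247 to 2501) in the short anti–PD-1 arm. Trbv19 with Trav13-1 had 3918 CPM against 765 in the long anti-MIF arm and 3827 against 2333 in the long anti–PD-1 arm. All of these lay above the other cells of their arms by more than counting error. Below by more than counting error were Trbv23 with Trav19 (314 against 1295, long anti-MIF), Trbv16 with Trav6-3 (1794 against 3111, long anti–PD-1) and Trbv31 with Trav10d (2034 against 3137, long combined). In the remaining combinations the intervals overlapped.

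Mki67 is given here as summed UMIs, not as a number of cells, and a few cells can hold most of them. Trbv31 with Trav3-1 had Mki67 at 44.2 CPM (6 UMIs) against 216 in the other cells of the long isotype arm, and at 31.2 (2 UMIs) against 213 in the long anti–PD-1/anti-MIF arm. In that latter arm, Trbv31 with Trav10d, in 6 cells, had Mki67 at 808 CPM (549 to 1147) against 44.0 (20.1 to 83.6) and Ifng at 1695 against 719. In 12 combinations of pair and arm, Tcf7 was at 0 UMIs in 10 and at 1 and 2 UMIs in the other 2. The part of the pairs in the differences between arms was not tested.

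**Figure D5:**
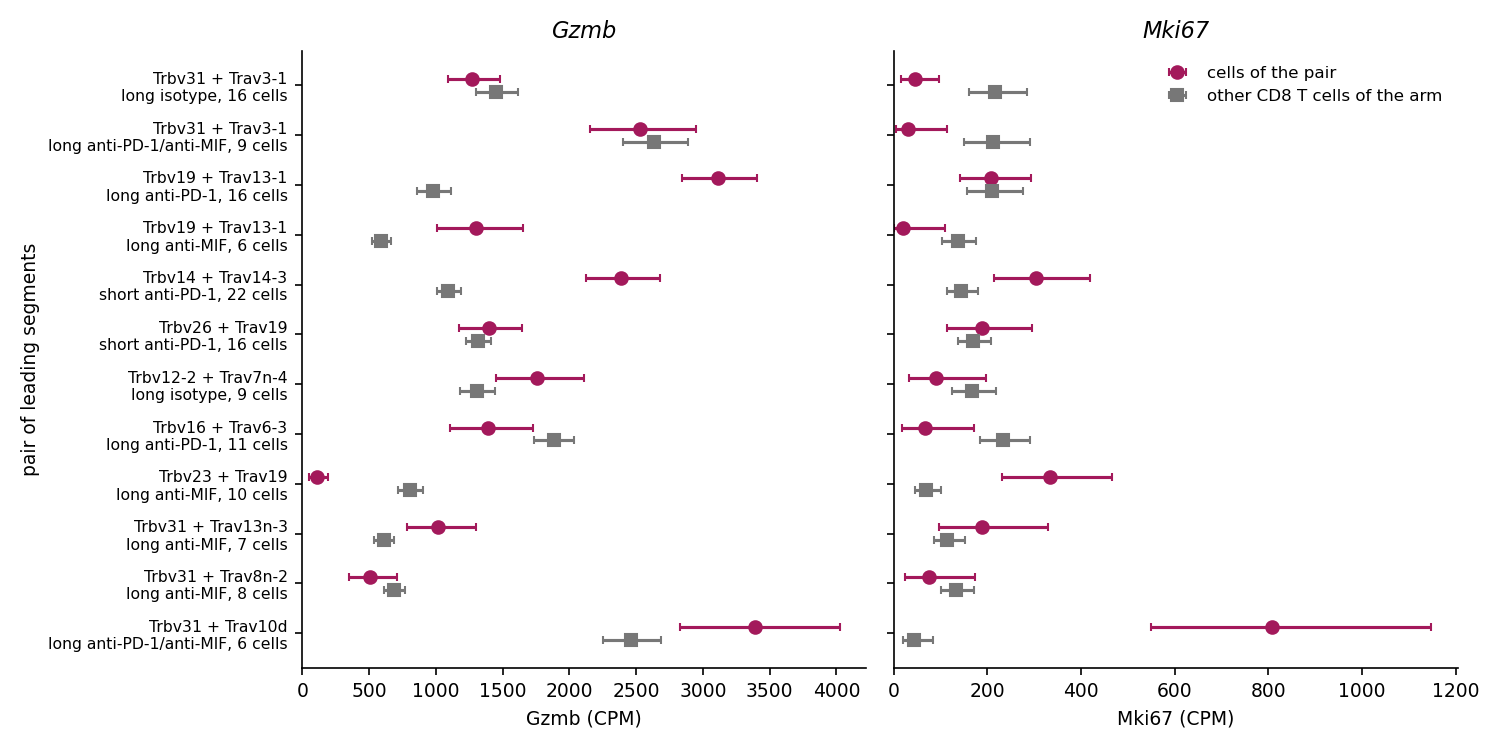
Gzmb (left) and Mki67 (right) in CPM in the cells of 12 combinations of pair and arm (circles) and in the other CD8 T cells of the same arm (squares), with exact 95% Poisson intervals. Gzmb ranges from 108 CPM in Trbv23 with Trav19 to 3390 CPM in Trbv31 with Trav10d.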

How the data were processed

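The libraries were 5′ droplet scRNA-Seq. The deposited values are raw UMI counts per gene and per hashtag, made by the authors with Cell Ranger 7.1.0 on mm10. The submitters' processing notes also name Seurat 5.1.0, R 4.3.2 and DESeq2. The annotation version is not given in the sources used here. Gene names and positions were taken from GENCODE vM21.

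From these counts, barcodes were filtered and CD8 T cells chosen as stated above, without subtraction of free RNA. A hashtag ratio of at least 3 removes doublets between arms only, and no doublet caller was run. Levels are CPM of the summed cells of an arm. Shares of cells with a UMI were computed after thinning to 2000 UMIs (seed 1), leaving out 18 long and 29 short cells. A count of 0 allows 3 counts.

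Counts per arm were tested with edgeR 4.0.16 (quasi-likelihood, TMM, Benjamini-Hochberg, threshold 0.05) in R 4.3.3, on cohort, anti–PD-1 and anti-MIF over 8 arms, with DESeq2 1.42.0 as an alternative. On simulated counts with 200 changed genes, edgeR recovered 45.6% of changes of 1 and 86.6% of changes of 2 on the log2 scale for anti-MIF, with 10 false calls among 4944 genes, and 44.7% and 80.4% for anti–PD-1, with 5 among 4940. Shares were compared over 4 pairs of arms by an exact sign-flip permutation test. Genes named were those of the lists, the 10 largest ratios to other barcodes, the 5 smallest p with 1 direction in 4 of 4 pairs where fewer passed, and the 10 largest separated differences between cohorts. The cells and lists were chosen with earlier results of these data known. The number of mice in an arm is not given in the sources used here. Library totals were 23702910 UMIs (long) and 31799441 (short), and the CD8 T cells of an arm held 73890 to 671768. A result on a receptor signaling gene is not reported here.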

Additional observations from a re-analysis of the deposited data

Results flagged for a closer look

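In 3 V segments the effect of anti-MIF on CD8 T cells differed with and without anti–PD-1 by the interaction test in edgeR, with log2 differences of 9.95 for Trav3-1, -11.69 for Trav13-1 and 4.91 for Trbv31. Trav3-1 and Trbv31 were read together in 16 cells of the long isotype arm and 9 of the long anti–PD-1/anti-MIF arm, and the difference was carried by the long cohort. Trav3-1 had no UMI in any short arm, so its difference has no replicate. How many mice hold these cells is not known, and its part was not tested.

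The fifth hashtag, which enters none of the main comparisons, was led by Trbv3 in the long library. Trbv3 was the leading beta segment in 6 of 12 of its CD8 T cells (50%, exact 95% interval 21.1% to 78.9%), against 3 of 45 in the isotype arm (6.67%, 1.40% to 18.3%) and 4 of 34 in the long anti–PD-1/anti-MIF arm (11.8%, 3.30% to 27.5%), whose interval overlaps. Trbv3 took 80.9% of the beta V UMIs under that hashtag and 24.3% in the long anti–PD-1/anti-MIF arm, and 5 of these cells also led with Trav16n. In the long anti–PD-1 arm Trbv3 led 2 of 52 cells, and in the long anti-MIF arm none of 57. In the short library no Trbv3 UMI was counted under the fifth hashtag, where Trbv19 led most cells (4 of 20).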

How the results depend on the processing

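Each arm is 1 sample, each cohort 1 library, and the short isotype arm has 17 CD8 T cells, which limits every contrast it enters. Where an arm was left out, the remaining arms were assumed to vary alike. The labels give no replicate numbers that could serve as a block. For the share of CD8 T cells, the anti–PD-1 difference of -2.42 points turned to 3.75 points among barcodes with Cd3 UMIs (-1.35 for anti-MIF) and to 0.26 as a log2 ratio. Leaving out 1 arm gave -5.24 to 2.99 for anti–PD-1 and -11.5 to -0.672 for anti-MIF. For cycling cells, the anti-MIF difference of 1.67 points turned to -5.81 with at least 2 UMIs over the cell cycle list, and the anti–PD-1 difference to 0.317 with a hashtag ratio of at least 2 and 0.0796 with no limit on Lyz2. Leaving out 1 arm gave -4.08 to 5.18 for anti-MIF and -4.63 to 2.27 for anti–PD-1.

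Against 0 genes for anti-MIF, edgeR called 3 with a hashtag ratio of at least 5, with at most 1 Lyz2 UMI or without class II-rich cells, 2 with a mitochondrial limit of 10%, without shared barcodes or without V segment genes, 1 with 10 arms and 43 with no filter on low counts. Against 0 for anti–PD-1 it called 50 with no filter and 1 with 10 arms. Against 3 for the interaction it called 5 with a hashtag ratio of at least 2 or at most 1 Lyz2 UMI, 27 with no filter, none with no cohort term or without V segment genes, and DESeq2 called 1. Leaving out 1 arm gave 0 to 4, 0 to 5 and 0 to 11 calls. Tnfsf11 passed in 7 of 23 alternatives and Ifitm1 in 9 of 24 (adjusted p from 6.37e-06 to 0.309 and from 1.84e-22 to 0.999839). None of the 20 gene results followed over the alternatives turned its direction. Trav3-1, which was not among them for the single antibodies, was called in opposite directions without the long anti-MIF arm (3.37 for anti-MIF, -4.06 for anti–PD-1) and without the long anti–PD-1 arm (-6.38 and 5.70). Against CD4 T cells in place of all other barcodes, 66 genes were at least 2-fold higher. Trbv17 led 6.67% of cells in the short anti-MIF arm and took 22.9% of its beta V UMIs. The alternatives without shared barcodes, class II-rich cells or V segment genes were chosen after seeing the data. The cause of these changes was not tested.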

Other observations

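The CD8 T cells under the fifth hashtag numbered 15 in the long and 35 in the short library. Their Gzmb stood at 2130 and 1220 CPM, Pdcd1 at 755.5 and 545 CPM, Ifitm1 at 693 and 815 CPM and Tcf7 at 0 and 43.2 CPM. For Pdcd1 both values lay above every labelled arm of the same library, but their intervals overlapped that of the next arm. These were 591 to 951 CPM against 628 to 778 in the long anti-MIF arm, and 444 to 663 against 364 to 462 in the short anti–PD-1 arm. In the interaction fit, Mif (log2 difference -0.99) and Cd74 (-2.42), a receptor chain of MIF, were 2 of 3 MIF pathway genes with an unadjusted p under 0.05 (edgeR, adjusted p = 0.99855 for both), and 1.97% of all genes were so in that direction. Cd74 was highest in the short anti–PD-1 arm, at 476 CPM, the arm with 3 cells rich in class II UMIs. Without the long anti–PD-1 arm the interaction log2 difference of Cd74 was -4.29, from a fit in which that short arm is the only 1 with anti–PD-1 alone.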
